A study of Mus musculus with 3 samples.

Results

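The genes Mir191 and Mir425 encode neighbouring miRNA hairpins, and their reads were followed in small RNA libraries of HL-1 cells. Members were the inserts of 18 to 25 nt that matched either hairpin exactly or with 1 to 2 untemplated bases at the 3' end, on both arms. These are 2 of the 1156 hairpins searched. They held 4303 of 5287955 miRNA reads in the library labelled siSrf1 and 6383 of 4603917 in the library labelled siSrf2, as 130 distinct inserts.

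HL-1 is a mouse cardiac muscle line that goes on beating in culture. By title, the cells of both libraries were transfected with an siRNA against Srf, the gene of serum response factor, (9 µl of a 20 µM stock) and harvested after 48 h. The siRNA entries of the same samples disagree with the titles, giving Srf si2 for the library labelled siSrf1 and siNon for the library labelled siSrf2. Groups follow the titles, with a single library in each. The siNon title has a library that was not analysed here, so no value below is set against cells without Srf siRNA by title. The cells are a single line, and nothing in the labels gives separate cultures.

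A miRNA hairpin is cut by Drosha and Dicer into a short duplex, of which one strand, the 5p or the 3p arm, is usually kept by an Argonaute protein. Bases 2 to 8 of the kept strand, the seed, pair with target mRNAs, so a start shifted by a base gives another seed. Mir191 and Mir425 lie on the same strand and are known to be made from a shared transcript with Dalrd3. miR-191-5p is often used as a reference miRNA in PCR because many tissues hold it at a steady level, and in human cells miR-425-5p is known to repress the atrial natriuretic peptide gene NPPA.

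The mature sequences, from RefSeq (GRCm38.p6), are shown because arm use and shifted ends are read from them. Capitals mark the seed.
miR-191-5p: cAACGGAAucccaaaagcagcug
miR-191-3p: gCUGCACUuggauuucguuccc
miR-425-5p: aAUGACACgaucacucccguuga
miR-425-3p: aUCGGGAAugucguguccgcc
In the NCBIM37 genome Mir191 lies on the plus strand of chromosome 9 at 108470650 to 108470723 and Mir425 at 108471108 to 108471192. Between them lie 384 bases. GENCODE vM1 starts Dalrd3, on the same strand, 1030 bases after the end of Mir425, while the RefSeq span of Dalrd3 in GRCm38.p6 begins 835 bases before Mir191 and holds both hairpins. By vM1 both hairpins therefore lie outside protein-coding genes, and by RefSeq inside Dalrd3, where exons and introns were not told apart here. Opposite Mir191, vM1 also lists a miRNA gene on the minus strand, CT010508.1. Each hairpin and each mature sequence matches the genome at 1 place. The seed of miR-425-5p is shared with 1 other mature sequence of the table, miR-489-3p, which had 0 reads in both libraries, a count that allows up to 3 reads. The other 3 seeds are shared with none in that table. The 3 reads that a count of 0 is said to allow are a fixed floor here and below. The upper bound of the 2-sided 95% Poisson interval of such a count is 3.69 reads.

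The libraries held 14911499 and 14518157 reads, with 7748874 and 7013026 inserts of 18 to 25 nt, of which 68.2% and 65.6% matched a hairpin. Markers of striated muscle were present in both, led by miR-1a-3p with 62.6% of miRNA reads in the library labelled siSrf1 and 51.5% in the library labelled siSrf2. Of the 5 muscle markers, 5 reached 50 reads, with miR-499-5p at 1.39% and 1.38% and miR-133a-3p at 0.109% and 0.226%, the last past the size rule given below (log2 ratio -1.06). miR-208b-3p had 829 and 864 reads and miR-208a-3p 66 and 65. Because miR-1a-3p takes more than any other miRNA, levels of the rest depend on the scaling. Intervals below cover counting error only.

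The reads of the cluster came almost wholly from 1 of its 4 arms. miR-191-5p had 4186 reads in the library labelled siSrf1 (95% Poisson interval 4060 to 4315) and 6192 in the library labelled siSrf2 (6039 to 6348). As reads per 1000000 miRNA reads (RPM), that is 792 RPM (768 to 816) and 1345 RPM (1312 to 1379). It held rank 42 of 261 measured miRNAs by mean level, where measured means at least 50 reads over both libraries.

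The other arm of the same hairpin, miR-191-3p, was nearly absent. It had 2 reads in the library labelled siSrf1 (0.242 to 7.22) and none, 0 reads, in the other library, where the 3 reads that a count of 0 allows come to 0.652 RPM. Both counts are under these 3 reads, so no ratio is given.

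Both arms of Mir425 were read, at low counts. miR-425-3p had 77 reads in the library labelled siSrf1 and 109 in the library labelled siSrf2, or 14.6 (11.5 to 18.2) and 23.7 (19.4 to 28.6) RPM. miR-425-5p had 38 and 82 reads in the same order, or 7.19 (5.09 to 9.86) and 17.8 (14.2 to 22.1) RPM. The intervals of the libraries did not overlap for miR-191-5p, miR-425-5p or miR-425-3p, and each was higher in the library labelled siSrf2. That direction was the common one with this scaling, shared by 209 of the 261 measured miRNAs. How many of the 261 had intervals apart was not counted. By mean level miR-425-3p ranked 165 and miR-425-5p 193 of 261.

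**Figure D1:**
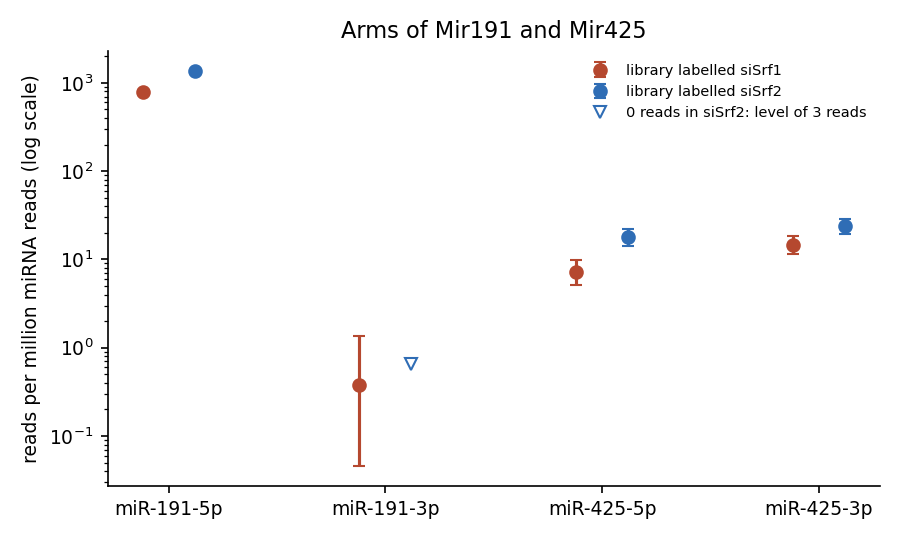
Reads per 1000000 miRNA reads (RPM, log scale) for the 4 arms of Mir191 and Mir425 in the library labelled siSrf1 and the library labelled siSrf2, with exact Poisson 95% intervals. miR-191-5p stands at 792 and 1345 RPM, the arms of Mir425 between 7.19 and 23.7, and miR-191-3p has 2 reads and 0 reads, the open triangle marking the level of 3 reads that a count of 0 allows.

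The hairpins differed in arm use. The 5p arm gave 99.95% of Mir191 reads in the library labelled siSrf1 (exact Clopper-Pearson 95% interval 99.83 to 99.99) and 100% in the library labelled siSrf2 (99.94 to 100). Of Mir425 reads, the 5p arm gave 33.0% (24.6 to 42.4) and 42.9% (35.8 to 50.3) in these libraries. The 3p arm was thus the more-read one in the library labelled siSrf1, while the interval of the library labelled siSrf2 includes equal use.

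Those 2 intervals of Mir425 overlap, so the difference of -9.89 points between the libraries was not resolved at this depth. Counted without untemplated bases, the 5p share of Mir425 was 39.6% in the library labelled siSrf1 (29.5 to 50.4) and 51.3% in the library labelled siSrf2 (43.1 to 59.4). Both intervals then include equal use, and the order of the arms in the library labelled siSrf2 turned round. Over 96 hairpins with both arms annotated and at least 50 reads in each library, the more-read arm held a median of 99.0% and 98.8% of reads. Of these hairpins, 9 in the library labelled siSrf1 and 3 in the library labelled siSrf2 were more even between their arms than Mir425. Mir191 was above the median, with 23 hairpins more one-sided in the library labelled siSrf1. In the library labelled siSrf2 its share was at the limit of 100%, where no rank can be read. A difference between the libraries larger than that of Mir425 was seen in 8 of the 96.

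**Figure D2:**
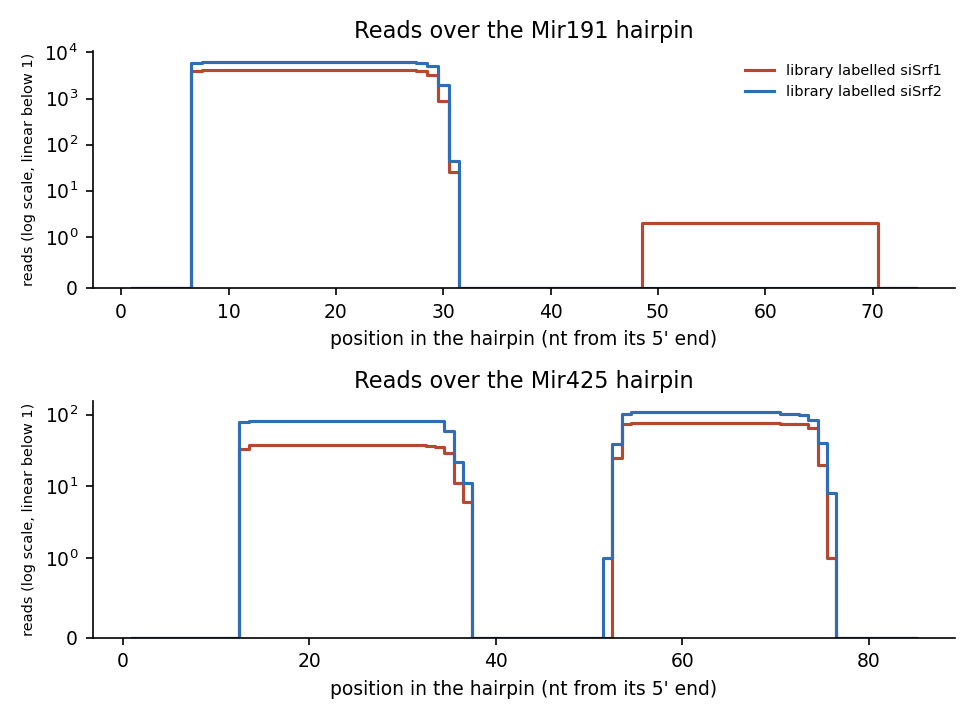
Reads over each base of the Mir191 and Mir425 hairpins (log scale, linear below 1 read; x axis, nt from the hairpin's 5' end) in the library labelled siSrf1 and the library labelled siSrf2. Mir191 has a single block on its 5p side beside 2 reads on its 3p side, and Mir425 has reads on both sides and none in the loop.

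Reads outside the arms were not found. No exact insert of 18 nt or longer lay on the minus strand or outside the hairpins in the cluster with 500 bases on either side, in either library, and each of these counts of 0 allows up to 3 reads. A single read, in the library labelled siSrf2, crossed the edge of Mir191. The antisense gene CT010508.1 was therefore at 0 reads in both libraries.

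Within each library, miR-191-5p outnumbered its neighbours by a wide margin. There were 110 reads of miR-191-5p per read of miR-425-5p in the library labelled siSrf1 (80.1 to 156) and 75.5 in the library labelled siSrf2 (60.7 to 95.1). Per read of miR-425-3p there were 54.4 (43.4 to 69.0) and 56.8 (47.0 to 69.3). Over both arms, Mir191 had 36.4 reads per read of Mir425 in the library labelled siSrf1 (30.3 to 44.2) and 32.4 in the library labelled siSrf2 (28.1 to 37.6). The intervals of the libraries overlap in all 3 ratios. Small RNA ligation favours some sequences over others, so these are ratios of reads and not of molecules.

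All 3 measured arms were lower in the library labelled siSrf1 when scaled to miRNA reads. The log2 ratio (siSrf1 minus siSrf2, 0.5 reads added to each count) was -0.76 for miR-191-5p (exact binomial 95% interval -0.82 to -0.71), or 1.70-fold higher in the library labelled siSrf2. It was -0.70 for miR-425-3p (-1.14 to -0.27), or 1.62-fold. It was -1.30 for miR-425-5p (-1.90 to -0.74), or 2.46-fold.

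miR-425-5p was the single one past the size rule, which asks for libraries at least 2-fold apart and an interval on 1 side of 0. The same rule took 66 of the 261, 25.3%, as higher in the library labelled siSrf2 and 0 as higher in the other. A count of 1 in 3 arms is thus near the background. The median log2 ratio over all 261 was -0.43, with 209 below 0. Lower ratios than that of miR-191-5p were found for 35.2% of them, lower than that of miR-425-3p for 39.1%, and lower than that of miR-425-5p for 18.4%. TMM factors, which centre the bulk of miRNAs, moved the median up by 0.47. miR-191-5p was then at -0.29, miR-425-3p at -0.22 with an interval of -0.67 to 0.21, and miR-425-5p at -0.83, no longer 2-fold apart, against a background of 39 miRNAs (14.9%).

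Set against miR-191-5p, which needs no scaling, the log2 ratio of miR-425-3p was 0.06 (-0.38 to 0.50) and that of miR-425-5p -0.54 (-1.14 to 0.03). Both intervals include 0, so the arms of Mir425 were not shown to differ from miR-191-5p in how far the libraries lay apart. The interval of miR-425-5p also allows a difference of more than 2-fold. GC content moved with the ratio: measured miRNAs with an annotated mature sequence of at least 50% GC had a median log2 ratio of -0.63 (106 miRNAs), and those under it -0.30 (118 miRNAs). The mature sequences of miR-191-5p, miR-425-5p and miR-425-3p have 52.2%, 47.8% and 61.9% GC. The part of GC content in their ratios was not tested.

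**Figure D3:**
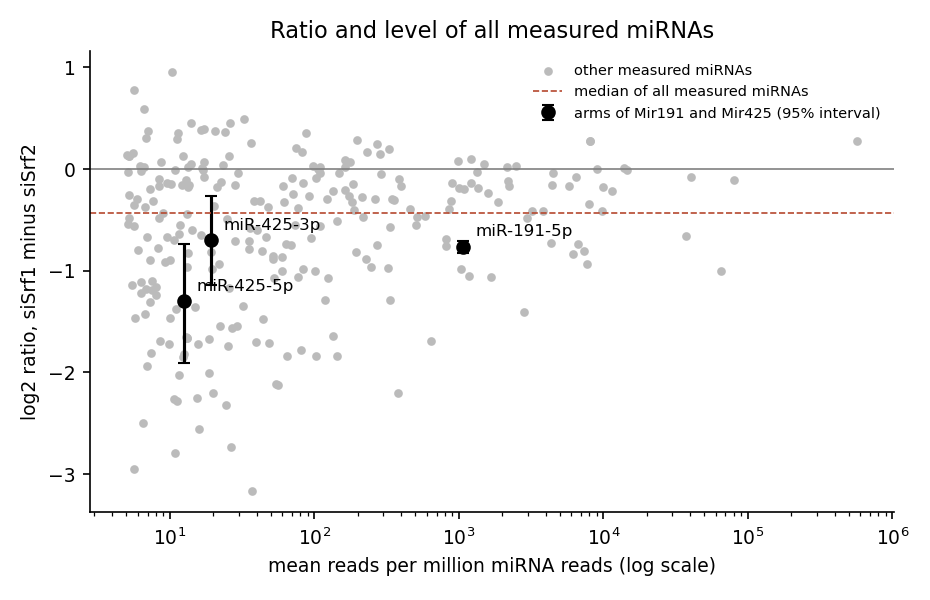
Log2 ratio of reads scaled to miRNA reads (siSrf1 minus siSrf2) against mean level (RPM, log scale) for 261 measured miRNAs, with 95% intervals for the 3 measured arms of Mir191 and Mir425. The dashed line is the median of all miRNAs, -0.43, and the 3 arms lie below it at -0.76, -0.70 and -1.30, within the spread of the others.

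miR-191-5p was read in many forms that differ at their ends. There were 77 distinct inserts, of which 16 matched the hairpin without an added base. The forms below are those whose 3' ends carry the comparison, and here capitals mark untemplated bases.
23 nt form: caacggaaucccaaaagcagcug
24 nt form: caacggaaucccaaaagcagcugu
22 nt form: caacggaaucccaaaagcagcu
form with an added A: caacggaaucccaaaagcagcugA
form with 2 added A: caacggaaucccaaaagcagcugAA
The annotated 23 nt form had 1731 reads in the library labelled siSrf1 and 2302 in the library labelled siSrf2, or 41.4% and 37.2% of the arm. The 24 nt form, which takes the next U of the hairpin, had 747 and 1712 reads, or 17.8% and 27.6%. A U added to the 23 nt form gives the same sequence, so templated and added U cannot be told apart there. The 22 nt form had 722 and 819 reads, or 17.2% and 13.2%. The forms with 1 and 2 added A had 251 and 391 reads and 85 and 139 reads. The remaining forms of at least 1% of the arm were a 21 nt form (43 and 82 reads), the 22 nt form with an added U (58 and 66), and the 22 and 23 nt forms that start 1 base later (122 and 120, 83 and 121). The library labelled siSrf2 thus held a larger part of the longer form and a smaller part of the 22 and 23 nt ones.

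Summed over all forms with the same last templated base, the end 1 base beyond the annotated one took 20.6% of reads in the library labelled siSrf1 (19.4 to 21.9) and 30.4% in the library labelled siSrf2 (29.3 to 31.6). The annotated end took 54.5% (53.0 to 56.0) and 49.4% (48.2 to 50.7), and the end 1 base short of it 20.8% (19.6 to 22.0) and 16.4% (15.5 to 17.3). For each of these 3 ends the intervals of the libraries are apart. Because the next base of the hairpin is U, the end 1 base beyond also holds any annotated ends with an added U. Mean insert length was 23.0 nt in the library labelled siSrf1 and 23.2 nt in the library labelled siSrf2, a difference of -0.16 nt.

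Over 93 miRNAs with at least 200 reads in each library the median difference in mean length was -0.04 nt. A larger difference in either direction was found for 6 of them. miR-191-5p is long among miRNAs: 91.9% of 123 miRNAs with at least 200 reads over both libraries had a smaller mean length, their median being 22.0 nt in each library.

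**Figure D4:**
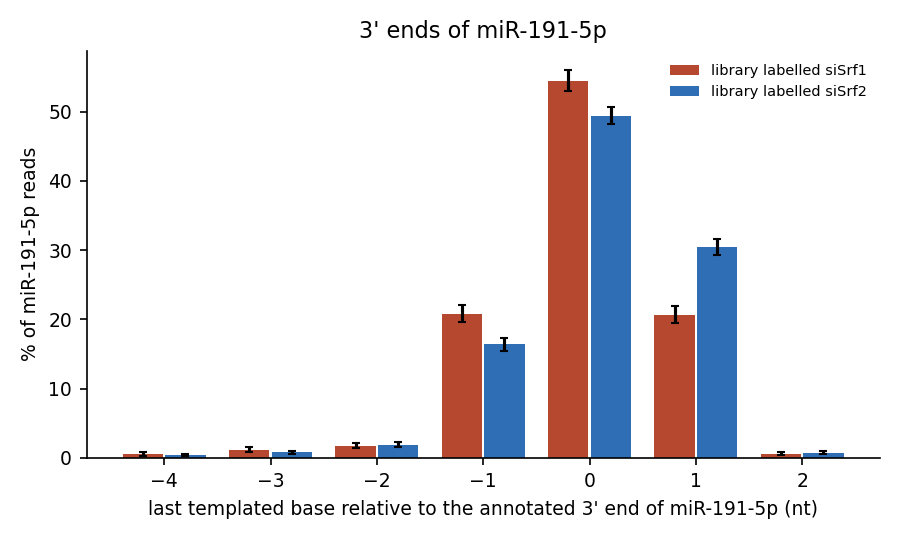
Share of miR-191-5p reads (%) by the last templated base relative to the annotated 3' end (nt), in the library labelled siSrf1 and the library labelled siSrf2, with exact Clopper-Pearson 95% intervals. At 1 base beyond the annotated end the bars are 20.6% and 30.4%, and at the annotated end 54.5% and 49.4%. A U added to the annotated end is counted as the end 1 base beyond it.

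The ratio between the libraries differed with the 3' end. Scaled to miRNA reads, forms that end 1 base beyond the annotated base (864 and 1884 reads) lay at a log2 ratio of -1.32 (-1.44 to -1.21), past the size rule. Forms with the annotated end (2281 and 3060 reads) lay at -0.62 (-0.70 to -0.55). Forms 1 base short of it (870 and 1014 reads) lay at -0.42 (-0.55 to -0.29). TMM factors move each of these ratios up by 0.47. The first class is then no longer 2-fold apart, and the interval of the last includes 0. Distances between the classes do not depend on the scaling. The intervals of the class 1 base beyond and the other 2 are apart. Ends 2 bases beyond the annotated one (26 and 44 reads) or 2 bases short of it (74 and 117) had overlapping shares in the libraries. They were given no ratio, so no order along the whole 3' end is shown. No replicate checks the differences between the 3 classes, since each group is a single library.

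**Figure D5:**
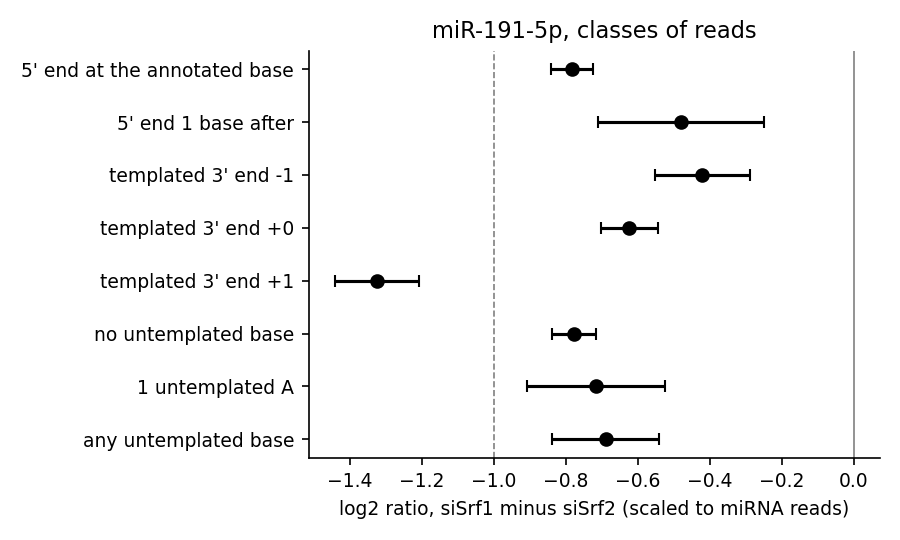
Log2 ratio (siSrf1 minus siSrf2, scaled to miRNA reads) of classes of miR-191-5p reads, by 5' end, templated 3' end and untemplated bases, with exact binomial 95% intervals. The dashed line marks 2-fold, and of the miR-191-5p classes shown only the one ending 1 base beyond the annotated end, at -1.32, lies past it. With TMM factors all classes move up by 0.47 and none lies past it.

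The 5' end of miR-191-5p was largely fixed. The annotated base began 93.2% of reads in the library labelled siSrf1 (92.4 to 93.9) and 94.4% in the library labelled siSrf2 (93.8 to 94.9). A start 1 base later made up 6.81% (6.06 to 7.61) and 5.59% (5.03 to 6.19), and it gives another seed, shown in capitals.
miR-191-5p, later start: aACGGAAUcccaaaagcagcug
The median miRNA began at its main 5' end in 98.7% of reads in each library, and 27.6% of the 123 by the library labelled siSrf1 and 28.5% by the other had a smaller share there than miR-191-5p. The intervals of the libraries overlap for both starts, which does not show that the libraries were alike there. Scaled to miRNA reads, the log2 ratio was -0.78 (-0.84 to -0.72) for the annotated start and -0.48 (-0.71 to -0.25) for the later one. These 2 intervals are apart, by a narrow margin and without a replicate. Of the 93 miRNAs with at least 200 reads in each library, 15 differed more between the libraries in the share of their main start.

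Untemplated bases on miR-191-5p, as counted, stood at the median of other miRNAs, and the intervals of the libraries overlap. They ended 15.3% of reads in the library labelled siSrf1 (14.2 to 16.4) and 14.5% in the library labelled siSrf2 (13.7 to 15.4), beside medians of 15.2% and 14.5% over the 123 miRNAs. Most often the added base was a single A, in 9.05% and 8.75% of reads (medians 5.89% and 5.95%). A single added U, the mark that uridylating enzymes leave, was in 1.48% and 1.11% (medians 3.91% and 3.88%). A U added at the annotated 3' end matches the next base of the hairpin and is counted as templated. The shares of added U and of all untemplated bases leave such reads out, which limits the comparison with the medians. A base change by sequencing error near the 3' end is counted as an untemplated base, and of reads with 2 such bases 46 of 162 and 54 of 238 ended in the templated letter.

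The forms of Mir425 rest on few reads. miR-425-3p had a split 5' end, which is shown with the annotated form first and the seed in capitals.
miR-425-3p, annotated start: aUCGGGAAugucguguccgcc
miR-425-3p, earlier start: cAUCGGGAaugucguguccgcc
The annotated start made up 64.9% of reads in the library labelled siSrf1 (53.2 to 75.5) and 57.8% in the library labelled siSrf2 (48.0 to 67.2). The start 1 base earlier made up 25 of 77 and 38 of 109 reads, or 32.5% and 34.9%, and the intervals of the libraries overlap. Of the 123 miRNAs, 7.32% by the library labelled siSrf1 and 4.07% by the other had a smaller share at their main start. With 20 reads in the library labelled siSrf1 and 17 in the library labelled siSrf2, the earlier-start form of 22 nt was as frequent as the annotated 21 nt form, with 21 and 17.

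Untemplated bases ended 22 of 77 miR-425-3p reads in the library labelled siSrf1 (28.6%) and 34 of 109 in the library labelled siSrf2 (31.2%), with overlapping intervals. A single added A was found in 2 and 14 reads, 2.60% (0.316 to 9.07) and 12.8% (7.20 to 20.6), and a single added U in 7 and 12. Over all forms of the arm, 2 added U ended 8 and 5 reads, or 10.4% (4.59 to 19.4) and 4.59% (1.51 to 10.4). The intervals of the libraries overlap for these tails. The form aucgggaaugucguguccgcccUU, with 2 added U in capitals, had 8 reads in the library labelled siSrf1 and 2 in the library labelled siSrf2.

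miR-425-5p began at its annotated base in 33 of 38 reads in the library labelled siSrf1 and in 79 of 82 in the library labelled siSrf2, which is 86.8% (71.9 to 95.6) and 96.3% (89.7 to 99.2). Its 23 nt form had 16 and 36 reads, and its forms ran to 25 nt, with 5 and 10 reads. It carried few untemplated bases, in 2 of 38 and 3 of 82 reads, or 5.26% (0.644 to 17.7) and 3.66% (0.761 to 10.3). Both intervals lie below those of miR-425-3p, the other arm of the same hairpin, whose lower bounds are 18.8% and 22.7%.

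Among the miRNAs nearest in mean level, miR-744-5p (770 and 1591 RPM) and miR-92a-3p (1007 and 1151) lay just above miR-191-5p, and miR-185-5p (693 and 1368) and miR-30a-3p (934 and 1061) just below. The ranges over the libraries overlap for all of them, so their order is not fixed. Next to miR-425-5p stood miR-24-2-5p, miR-664-5p, miR-872-3p and miR-382-3p, with log2 ratios of -0.11, -1.82, -1.85 and 0.13. By nearness of the log2 ratio, over 2 libraries and among miRNAs with at least 1000 reads, miR-191-5p was most like miR-322-3p (-0.75), miR-130a-3p (-0.74) and miR-107-3p (-0.74). The nearest to miR-425-5p were miR-184-3p (-1.29), miR-351-5p (-1.29) and miR-423-5p (-1.41).

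Of 11 other miRNAs often used as references in PCR, all 11 were measured and lay below 0, with 1 past the size rule. Their median log2 ratio was -0.19, beside -0.43 over all measured miRNAs, and 1 of them, miR-423-5p (-1.41), lay below miR-191-5p. miR-320-3p was next at -0.73, followed by miR-93-5p at -0.51 and miR-25-3p at -0.41. let-7a-5p (-0.08), miR-24-3p (-0.16), miR-26a-5p (-0.17), miR-16-5p (-0.17), miR-103-3p (-0.17), miR-92a-3p (-0.19) and miR-423-3p (-0.29) were closer to level. miR-191-5p thus lay below 10 of the 11. With TMM factors the median of the list was 0.28, 3 of the 11 were below 0, and miR-191-5p was on the side of those 3.

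A list of miRNA clusters known from introns of protein-coding genes gave 13 measured arms of 16, of which 11 lay below 0 and 1 was past the size rule, higher in the library labelled siSrf2. Their median log2 ratio was -0.21, from -1.84 to 0.16, and 0.27 with TMM factors. In the Mcm7 cluster the less-read arm miR-25-5p (334 and 1039 reads) lay at -1.84 and the more-read arm miR-25-3p (14571 and 16871 reads) at -0.41. In the cluster of miR-23b, miR-27b and miR-24 the measured arms lay between -0.21 and 0.16, where miR-24-3p is also made from another hairpin and miR-27b-3p shares reads with miR-27a-3p. miR-15b-5p of the Smc4 cluster was at -0.98 and miR-16-5p, which is also made from another hairpin, at -0.17.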

How the data were processed

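The authors deposited, for each library, the count of reads of every distinct 36 nt sequence, with no scaling, per the readme deposited for the series. Libraries came from an Illumina small RNA kit and the Genome Analyzer, per the labels. The sources used here name no aligner, no genome build and no filter on reads. Reads were cut at the first 8 nt of the 3' adapter without mismatch, or at 4 nt or more of it at the read end. Inserts of 18 to 25 nt without N were matched to 1005 RefSeq hairpins (GRCm38.p6) and 151 further hairpins named in GENCODE vM1 (NCBIM37), exactly or with up to 2 untemplated 3' bases. Positions in NCBIM37 came from an exact search. An insert belongs to the arm it overlaps by at least 50%, and inserts that fit several miRNAs were shared equally. GC content was known for 85.8% of measured miRNAs. No values were tested across samples, since there was 1 library per group. Reads carry no molecular identifiers and are not independent molecules. The matching and the size rule were checked on simulated data.

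Named other miRNAs are the 2 next above and below miR-191-5p and miR-425-5p in level, the 3 nearest in ratio, forms of at least 1% of an arm (for Mir425, where that is under 2 reads, those with the most reads), and members of the lists of PCR references, intronic clusters, muscle markers and shared seeds. The members and lists were chosen with earlier results of these data known. The alternatives tried were scaling by TMM (edgeR 4.0.16) or by median of ratios (DESeq2 1.42.0, R 4.3.3), other totals, insert lengths, adapter lengths, minimums, pseudocounts and exact matches. Python 3.11.15, numpy 2.4.6, scipy 1.17.1, pandas 2.3.3, pysam 0.24.0 and matplotlib 3.10.9 were used.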

Additional observations from a re-analysis of the deposited data

Results flagged for a closer look

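Reads that begin with the first 18 nt of a member but hold no adapter match did not enter the counts and lie above the 3 reads that a count of 0 allows. For miR-191-5p there were 728 in the library labelled siSrf1 and 965 in the library labelled siSrf2, or 15.3% and 13.8% of the counted and uncounted reads that begin this way. For miR-425-5p there were 6 and 14, or 14.3% and 14.9%. For miR-425-3p there were 17 and 8, or 23.6% and 11.4%, so the uncounted reads were more in the library labelled siSrf1, while the counted ones were more in the library labelled siSrf2. The part of these reads in its ratio was not tested, and miR-191-3p had 0 in both.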

How the results depend on the processing

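No paired analysis was possible because only a single library stands in each group. The log2 ratio of miR-191-5p (-0.76) was -0.29 under TMM scaling, -0.33 under median-of-ratios scaling, -0.39 with the total without miR-1a-3p and -0.66 with the total of all inserts. That of miR-425-5p (-1.30) was no longer 2-fold apart with TMM (-0.83), median-of-ratios (-0.87) or the total without miR-1a-3p (-0.93), and that of miR-425-3p (-0.70) was -0.22 and -0.27 with TMM and median-of-ratios factors. Each of the 3 stayed below 0 under all 10 alternatives, though under both of these factors, and with the total without miR-1a-3p (-0.33, interval -0.77 to 0.11), the interval of miR-425-3p includes 0. With exact matches only, the 5p share of Mir425 was 39.6% in the library labelled siSrf1 (33.0%), with an interval that includes 50%, and 51.3% in the library labelled siSrf2 (42.9%). miRNAs past the size rule and higher in the library labelled siSrf2 (66) numbered 39 under TMM, 42 under median of ratios, 100 with at least 10 reads and 18 with at least 500. Those higher in the library labelled siSrf1 (0) numbered 3 with TMM and 3 with median-of-ratios factors, 2 without miR-1a-3p, and 1 each with the total of all inserts, inserts of 20 to 24 nt, exact matches, sequences seen once left out and at least 10 reads. A scaling moves all ratios by the same amount and a minimum changes how many miRNAs are counted, while for the other settings the cause was not tested. miR-191-3p, with 2 and 0 reads, gave no ratio, and the forms of Mir425 are limited by its few reads.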

Other observations

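Single base changes inside the 23 nt form of miR-191-5p were counted up to base 21, with positions from 1 at its 5' end. They made up 207 reads in the library labelled siSrf1, 10.7% of the exact and changed reads together, and 233 in the library labelled siSrf2, 9.19%. A-to-C changes (103 and 85 reads) and C-to-A changes (46 and 69) were the most frequent types. The single changes with the most reads were A14C with 29 reads in the library labelled siSrf1 and C10A with 32 in the library labelled siSrf2. A-to-G changes, the type that inosine from RNA editing would give, were in 6 and 8 reads.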
